A study of Mus musculus with 2 samples.

Results

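Cytosolic ribosomal protein genes encode the proteins that, with ribosomal RNA, build the small and the large subunit of the ribosome in the cytoplasm. The 91 genes described here are all protein-coding genes of the GENCODE M21 mouse annotation whose symbol starts with Rpl or Rps and a number, or is Rplp0, Rplp1, Rplp2 or Rpsa, without the S6 kinase genes and Rps19bp1, out of 55536 genes in all. Of these, 77 are core genes, which encode 1 standard protein each, 46 in the large subunit and 31 in the small subunit. The other 14 are paralogs or retrocopies that the annotation lists as protein-coding. The core genes lie on 19 chromosomes, 14 of them on chromosome 7.

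Each ribosome holds 1 copy of nearly every core protein, the P stalk proteins being the known exception, and cells make these proteins in large and matched amounts. Their mRNAs are short and abundant, and in mammals many start with a run of pyrimidines, the 5′ terminal oligopyrimidine (TOP) tract, through which mTOR signalling controls their translation. Activated T cells raise ribosome production when they grow and divide. Mammalian genomes also hold many processed pseudogenes of these genes, which are copies made by reverse transcription of the spliced mRNA and so resemble it closely.

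The RNA came from inflammation-experienced regulatory T cells, which the labels derive from activated regulatory T cells. They were taken as primary cells from male mice at 7 weeks of age. Polyadenylated RNA was sequenced in 2 libraries, which the labels give as technical replicates of 1 biological replicate, so there is 1 group and no comparison between conditions. The deposited gene tables hold expected counts, TPM (a level per transcript length, scaled to a common sum) and FPKM for each gene, and separate, smaller count tables hold whole-number counts. In the gene tables library 1 held 26593267 counts and library 2 held 22036331, and in the count tables the totals were 7911181 and 6972139.

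The libraries stood apart beyond counting error. Of 24253 genes with at least 10 counts, 70.3% differed between the libraries in a 2-sided exact binomial test with Benjamini-Hochberg adjustment. The 6 regulatory T cell markers, Foxp3 among them, were detected in both libraries, with summed TPM of 1265 and 1101. The 6 erythroid markers summed to TPM 8494 in library 1 and 94.7 in library 2. The 6 macrophage markers summed to 6.67 and 76.1, with C1qc at 0 counts in library 1, and the 4 proliferation markers to 59.9 and 16.6. Among the proliferation markers, Top2a went the other way, at 6.5 and 9.24. The labels give both libraries 1 biosample and 1 donor, but whether they were made from 1 RNA preparation is not given in the sources used here. Every test below compares these 2 libraries and covers counting error only, and in bulk RNA fewer cells of a type and less RNA per cell cannot be told apart.

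The sequences of 4 core genes and of a copy of each are shown first, because levels below are given with and without copies. Each line is a 50-base stretch of the coding sequence (mm10, GENCODE M21), and 50 bases is the word length that the difference between length and effective length in the tables implies.
Rpl12, a protein at the base of the P stalk, chr2:32962049-32962098, plus strand: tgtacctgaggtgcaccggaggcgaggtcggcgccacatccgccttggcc
Gm10275, chr10:29699204-29699253, minus strand: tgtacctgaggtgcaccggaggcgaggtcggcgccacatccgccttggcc
Rpl5, which binds 5S ribosomal RNA, chr5:107901870-107901919, plus strand: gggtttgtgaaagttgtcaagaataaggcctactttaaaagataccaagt
Gm15500, chr7:114706111-114706160, minus strand: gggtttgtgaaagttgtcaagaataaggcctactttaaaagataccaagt
Rpl10, a protein close to the catalytic centre, chrX:74271660-74271709, plus strand: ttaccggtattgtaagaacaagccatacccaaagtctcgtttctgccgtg
Rpl10-ps3, chr9:50344869-50344918, minus strand: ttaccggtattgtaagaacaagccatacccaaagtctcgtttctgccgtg
Rps27, chr3:90213252-90213301, minus strand: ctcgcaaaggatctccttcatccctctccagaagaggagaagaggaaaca
Rps27rt, chr9:114982652-114982701, minus strand: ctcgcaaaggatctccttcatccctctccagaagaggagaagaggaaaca
In these 4 pairs the identity ran over the whole coding sequence, which was 495 bases for Rpl12, 891 for Rpl5, 642 for Rpl10 and 252 for Rps27. A read that lies inside them has the same letters for the gene and for its copy.

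Other core genes had copies that differed from them at some coding bases. Each stretch below was chosen as the one with the most differing bases. Capitals mark the bases that differ, and positions count from 1 at the 5′ end of the printed stretch, with the base of the core gene first.
Rplp0, chr5:115561146-115561195, plus strand: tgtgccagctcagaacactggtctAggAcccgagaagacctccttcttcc
Gm8730, chr8:102865384-102865433, minus strand: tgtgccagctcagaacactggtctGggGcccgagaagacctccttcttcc
Rps18, chr17:33952489-33952538, minus strand: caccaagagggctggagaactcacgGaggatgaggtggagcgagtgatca
Rps18-ps3, chr8:107263044-107263093, minus strand: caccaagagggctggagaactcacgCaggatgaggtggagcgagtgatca
The substitutions were A25G and A28G for Rplp0 and G26C for Rps18. Over the whole coding sequence, 12 of 951 bases of Rplp0 and 3 of 456 of Rps18 had no match in these copies. Reads from stretches without a difference have the same letters for the gene and for its copy. The copies named here and below were chosen after their values were seen.

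Ribosomal protein genes were among the most abundant genes of these cells. All 77 core genes and 11 of the other 14 members were detected, meaning that TPM reached 1 or more in each library, as were 13718 of all 55536 genes (24.7%). The 91 members took 2.80% of the expected counts of library 1 (95% Wilson interval 2.79 to 2.81) and 2.45% of library 2 (2.44 to 2.46). Because their mRNAs are short, their share of TPM was larger, at 7.86% and 7.01%. The median TPM of the core genes was 735 in library 1 and 616 in library 2, above 98.8% and 98.5% of the detected genes.

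**Figure D1:**
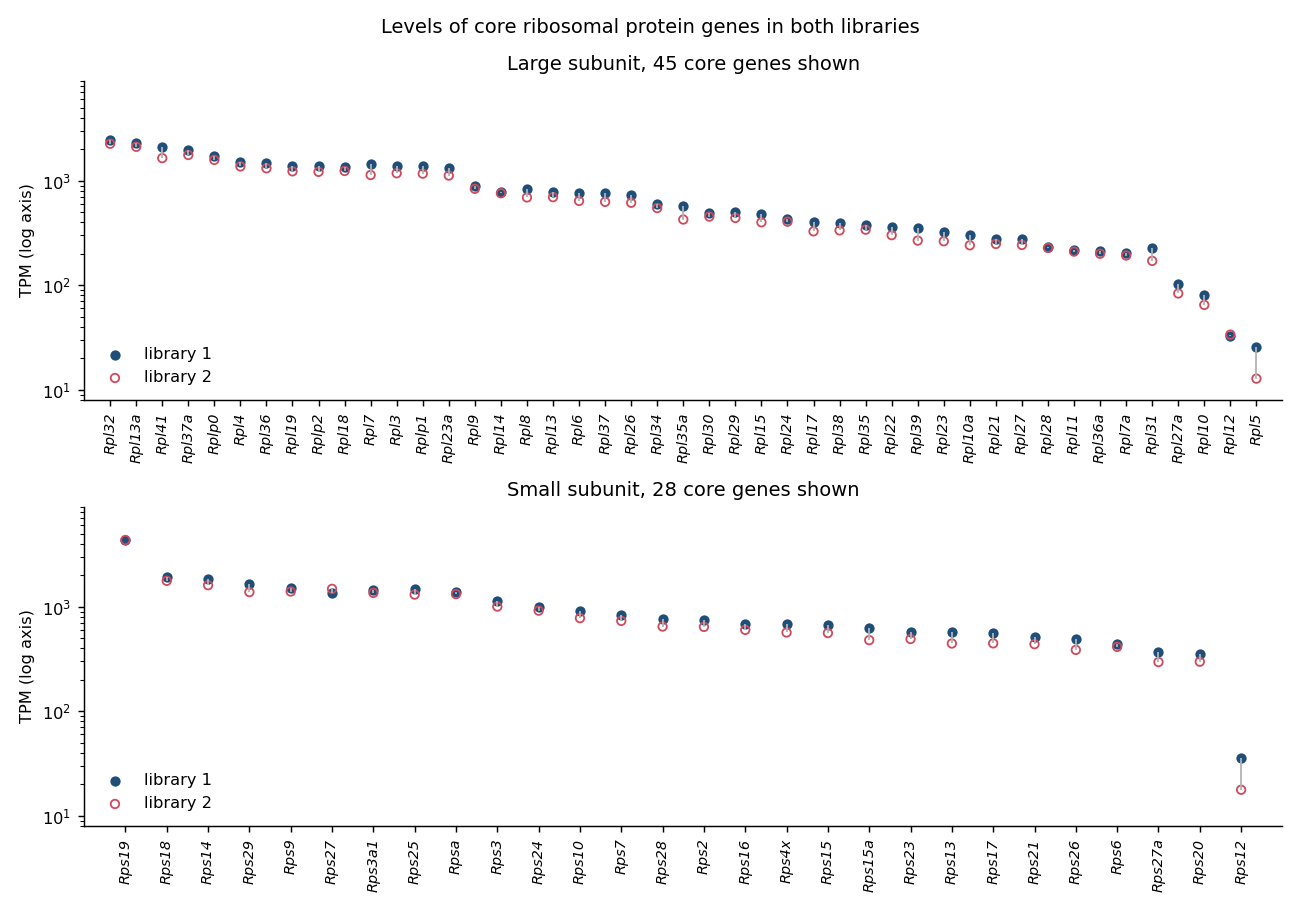
TPM of core genes (log axis) in library 1 (filled) and library 2 (open), ranked by mean within the large subunit (45 genes shown) and the small subunit (28 genes shown). Among the genes shown, Rps19 has the highest level, and Rpl27a, Rpl10, Rpl12, Rpl5 and Rps12 lie far below the others.

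In the large subunit the median TPM of core genes was 589 in library 1 and 501 in library 2. Among the highest, Rpl32 stood at 2455 and 2260.1, Rpl13a, known also for repressing translation of inflammatory mRNAs in interferon-treated myeloid cells, at 2309 and 2113, Rpl41, the shortest protein of the ribosome, at 2117 and 1647, and Rpl37a at 1987 and 1765. The lowest were Rpl5 at 25.8 and 12.8, Rpl12 at 32.7 and 33.7, Rpl10 at 81.5 and 64.8, Rpl27a at 102 and 83.4, and Rpl31 at 225 and 171. The log2 TPM of the 77 core genes correlated at r = 0.995 between them, as a description across genes of 2 libraries that the labels give 1 biosample.

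In the small subunit the medians were 757 and 646. Rps19, in which mutations cause Diamond-Blackfan anaemia, was highest at 4343 and 4353. Rps18 (1933 and 1771), Rps14 (1849.9 and 1608) and Rps29 (1646 and 1380.3) were also among the 5 highest. Rps12 was lowest at 36.0 and 17.7, and Rps20 (356 and 298), Rps27a (368 and 296) and Rps6 (437 and 413) were also among the 5 lowest. Rps12 thus lay far below every other small-subunit gene in each library.

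By role, the levels of the genes alone were as follows. The P stalk, which recruits translation factors, had Rplp0 at a TPM of 1734 and 1583, Rplp2 at 1394 and 1217 and Rplp1 at 1374 and 1169, a spread within 1.5-fold. Rpl5 and Rpl11, which enter the ribosome together with 5S ribosomal RNA and, when free, bind Mdm2, stood at 25.8 and 218 in library 1 and at 12.8 and 209.9 in library 2. With the TPM of their near-identical copies added, as described below, they stood at 593 and 914 in library 1 and at 551 and 806 in library 2. Of proteins at the decoding site and the mRNA channel, Rps3 stood at 1142 and 1003, Rps2 at 749 and 641 and Rps23 at 577 and 491. With its copies Rps23 stood at 2220 and 2053. Of proteins that line the exit tunnel or the catalytic centre, Rpl4 stood at 1504 and 1371, Rpl3 at 1386 and 1179.5, and Rpl10 at 81.5 and 64.8, or at 862 and 754 with its copies. Rps6, the substrate of S6 kinases, stood at 437 and 413, or at 1756 and 1592 with its copies. Beside Rps19, the Diamond-Blackfan genes Rps24, Rpl35a and Rps26 had TPM of 994, 575 and 487 in library 1 and 917, 426 and 386 in library 2.

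Some proteins of the ribosome lie outside the symbol rule. Fau, whose small-subunit protein is fused to a ubiquitin-like one, had a TPM of 722 and 598. Rack1, a signalling scaffold on the small subunit, had 598 and 488. Both lie within the range of the core genes. Rps27a, a core gene whose protein is made as a fusion with ubiquitin, had 368 and 296, or 1128 and 940 with its copies.

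Among the 14 members outside the core, Rps27rt was the most abundant, at a TPM of 2773 and 2355, below Rps19 and above Rpl32 in both libraries. Rpl10-ps3 (507 and 416), Rpl9-ps6 (195 and 163), Rps12-ps3 (70.9 and 74.3) and Rpl36a-ps1 (7.62 and 4.33) are further retrocopies. Of the paralogs, Rpl36al stood at 350.2 and 343, and Rpl22l1 at 255 and 204, beside 359.7 and 301 for Rpl22, a protein needed for the development of alpha-beta T cells. Rps27l, a paralog of Rps27 that p53 induces, stood at 133 and 90.4, and Rpl7l1, a nucleolar relative of Rpl7, at 117 and 100.3. Paralogs known from other tissues were low: Rpl39l at 5.33 and 1.13, Rpl10l at 1.59 and 1.74, and Rpl3l, known from heart and skeletal muscle, at 0.31 and 0.22. Rpl3l, Rpl9-ps1 (0.35 and 0.29) and Rpl36-ps4 (0.20 and 0.00) were not detected.

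The core genes spread widely in mRNA level. The SD of log2 TPM over the 77 genes was 1.44 in library 1 and 1.53 in library 2, and the upper quartile of TPM exceeded the lower 3.55-fold and 3.67-fold. Within 2-fold of the median lay 45 and 40 core genes. The median of small-subunit genes exceeded that of large-subunit genes by 0.37 on the log2 scale (0.36 in library 1 and 0.37 in library 2).

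Much of this width went with the copies. Words of 50 bases were compared between all annotated transcripts. A copy of a core gene was any other gene outside its locus that shared at least 10% of the core gene's words and at least 30% of its own. By this rule, chosen after the data were seen, 66 of the 77 core genes had 320 copies, of which 309 are annotated as pseudogenes. The copies held 214138 expected counts in library 1 and 158208 in library 2, beside 710792 and 516647 for the core genes. Of the words in a core gene's main coding transcript, a median of 37.8% occurred in no other gene, and 22 of 77 core genes had under 20%. Other genes here include core genes and genes at the same locus, which the copy rule leaves out. Rpl13a, for example, had 10.1% such words but no copy by the rule.

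With the TPM of the copies added, the core genes drew together. The SD of log2 TPM fell to 0.89 and 0.93, the ratio of the quartiles to 2.29-fold and 2.32-fold, and 62 and 59 genes lay within 2-fold of the median. The lowest sum was that of Rpl7a (212 and 201). The gap between the subunits narrowed to 0.15 on the log2 scale. In 36 core genes the gene itself held over 90% of its sum in both libraries. In 21 it held under 50%, in 8 under 25% and in 4 under 10%. Those 4 were Rpl12 (2.90% and 3.67%), Rpl5 (4.35% and 2.32%), Rps12 (6.31% and 4.15%) and Rpl10 (9.45% and 8.59%).

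**Figure D2:**
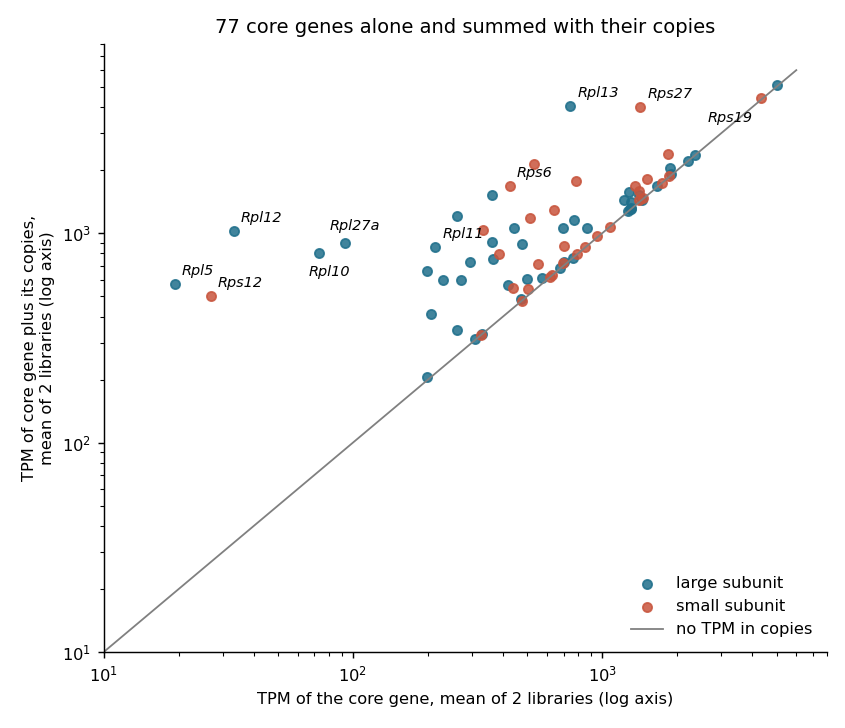
TPM of each core gene alone (horizontal) and with its copies added (vertical), means of 2 libraries on log axes. Genes on the line have no TPM in copies; Rpl5, Rps12, Rpl12, Rpl10 and Rpl27a lie far left of it alone and among the others once their copies are added.

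The counts behind these shares were large. Rpl5 had 461 counts in library 1 and 172 in library 2, and its copy Gm15500 had 8729 and 6745. Rpl12 had 521 and 515, and Gm10275 had 7574 and 5087. Rpl10 had 991 and 627, and Rpl10-ps3 had 6047 and 4061. Each copy thus held at least 6 times the counts of its core gene in both libraries. Rps12, which had 404 and 221 counts, had 15 copies, the largest of them Rps12l1 with 2529 and 1469. Rps27 had 6714 and 6019 counts beside 14954 and 10384 for Rps27rt. Gm12918, a processed pseudogene of Rpl13 with the same coding sequence as Rpl13, had a TPM of 3330.4 and 3221, more than Rpl13 itself at 787 and 696.

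For each of the 66 core genes with copies, the coding sequence was aligned, with gaps allowed, to the copy with the most counts in library 1. In 18 pairs every base of the coding sequence matched. The core genes of those 18 pairs held a median of 32.3% and 33.2% of their summed TPM, ranging from 2.90% to 86.9% in library 1. The core genes of the other 48 pairs held a median of 91.9% in each library, with a range of 23.6% to 100% in library 1. Of the 21 core genes under 50%, 14 had a copy identical over the whole coding sequence, and in the other 7 at least 99.1% of its bases matched. Among the 25 core genes with a copy that held over 90%, no aligned copy was identical, and the closest matched at 99.8%. Only 1 copy per gene was aligned, picked by the same counts that give these shares, and copies with fewer counts were not aligned. These are descriptions of 1 annotation and 2 libraries, and how the expected counts divide reads of identical stretches was not tested.

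Within the core genes, TPM was also divided among annotated transcripts, and a link to the copies was not tested. In library 1 and library 2, 75.02% and 74.6% of core TPM lay in transcripts annotated as protein-coding, against 78.5% and 78.0% in other detected protein-coding genes. Transcripts annotated for nonsense-mediated decay took 8.29% and 8.80%, against 4.05% and 3.996%, and retained-intron transcripts 10.5% and 10.6% against 11.6% and 12.1%. The most abundant transcript was protein-coding for 58 of 77 core genes (75.3%, against 85.8% of 10730 other genes). It was a retained-intron form for 12 of the 77, against 6.61% of the 10730 other genes. In Rps26, 1 of the 12, that form held 98.3% and 97.9% of the gene. The most abundant transcript was a processed transcript for 5 core genes and a decay form for 2, Rpl14 and Rpsa. The shares of other genes for these last forms are not given here. In these 19 genes a median of 14.1% of the words of the top transcript occurred in no other transcript of the gene.

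The leading transcript was the same in both libraries for 72 of 77 core genes and differed for 5, among them Rpl10, Rpl11, Rpl12 and Rps12. The shares that follow are those of the transcript with the highest mean TPM, which in these 4 genes did not lead in both libraries. They were lowest in Rps12 (28.6% and 15.7%), Rpl10 (22.1% and 28.2%), Rpl12 (27.3% and 34.9%) and Rpl11 (37.7% and 39.6%). All 4 were also genes that held under 50% of their sum with copies.

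30 core genes contain 58 of the 1507 annotated small nucleolar RNA genes, which guide the modification of ribosomal RNA and are released from introns. Rpl4 contains 5 and Rpl13a contains 4. Among the low genes, Rpl5 and Rps12 contain 3 each, Rpl27a 2, and Rpl10 and Rpl12 1 each. Polyadenylated libraries are not made to measure these RNAs, and their levels are not given.

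The start sites of core genes were searched for a TOP tract, a C followed by at least 4 C or T, beginning within 5 bases of a RefSeq start (GRCm38.p6) on the gene's strand. Of the 57 core genes matched, 27 had one (47.4%), against 21.2% of 27025 genes in the table. In the examples below, 10 bases before and 20 from the start are printed with the tract in capitals, and the last has none.
Rpl13a, chr7:45128726-45128755, minus strand: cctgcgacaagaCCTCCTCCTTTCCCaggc
Rps18, chr17:33955646-33955675, minus strand: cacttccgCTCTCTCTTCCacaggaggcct
Rps27, chr3:90213629-90213658, minus strand: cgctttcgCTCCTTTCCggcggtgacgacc
Rps19, chr7:24884582-24884611, plus strand: aatctcgcgagactcgacgcccgacttgtg
The median of mean TPM was 534 in the 27 genes with a tract and 686 in the 30 without, and Rps19, the most abundant small-subunit gene, was among those without. A match is a description of letters, and a RefSeq start can lie away from the start used in these cells.

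In the gene tables most ribosomal protein genes were slightly higher in library 1. The count tables turned this direction, with a median log2 ratio of 0.066 over the core genes. There the median of 664 other genes with a mean TPM of at least 200 was 0.11. Of 84 members tested in the count tables, 2 were called higher in library 1 (22.1% of all genes tested) and 11 in library 2 (32.2%). In the gene tables, of 88 members tested, 78 passed with more counts in library 1, 3 passed with more in library 2, and 7 did not pass. Over all genes tested, 23.9% passed with more counts in library 1 and 46.4% with more in library 2. Of the 77 core genes, 70 passed with more in library 1, which were 41 of 46 in the large and 29 of 31 in the small subunit, and 3 with more in library 2. With DESeq2 size factors, which shift all genes, 74 core genes passed with more in library 1 (32.1% of all genes) and none with more in library 2 (39.0%). The median log2 ratio of library 2 over library 1 was −0.22 for the core genes, −0.19 for the large and −0.24 for the small subunit, against 0.01 for all detected genes and −0.02 for 742 other genes with a mean TPM of at least 200. The differences were small: 2 core genes, Rpl5 and Rps12, were at least 1.5-fold higher in library 1, as were 14.5% of all genes tested, and 53.7% of all genes reached that size in either direction.

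The lowest and the highest log2 ratio among core genes were those of low genes, Rpl5 and Rpl12. Rpl5, at TPM 25.8 and 12.8, had the lowest log2 ratio, −1.15 (exact test, adjusted p = 8.46e-20). For Rps12, at 36.0 and 17.7, it was −0.60 (exact test, adjusted p = 1.43e-06). Rpl31, Rps15a and Rpl39 followed at −0.47, −0.43 and −0.42. The 3 core genes called higher in library 2 were Rpl12 at 0.25 (adjusted p = 0.00801, exact test), Rpl11 at 0.13 (adjusted p = 0.0132, exact test) and Rps27 at 0.11 (adjusted p = 2.38e-05, exact test). The test does not include the posterior SD given with each expected count, which for Rps27 was 4.94% and 4.82% of the count. Rps19 at −0.01, Rpl22 at −0.05, Rpl28 at −0.08 and Rpl36a at −0.10 did not pass the test.

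Of these 8 genes, Rpl5, Rps12, Rpl31, Rpl12 and Rps27 have a copy identical over the whole coding sequence, and the sums over copies were more alike. With the counts of the copies added, the SD of the 77 log2 ratios went from 0.17 to 0.09, and the range from −1.15 to 0.25 became −0.41 (Rpl39) to −0.01 (Rps19). The sum for Rpl5 had a log2 ratio of −0.14, that for Rpl12 −0.25, that for Rpl11 −0.12 and that for Rps27 −0.13. No sum was higher in library 2, 74 of 77 were called higher in library 1, where 23.8% of all genes were under this counting (46.6% in library 2), and the median was −0.21. The sum for Rps12 kept a log2 ratio of −0.41.

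Of 11 members outside the core that were tested, 8 passed with more counts in library 1 (23.9% of all genes tested), none with more in library 2 (46.4%), and 3 did not pass. Rpl39l had 45.7 and 7.68 counts, and its log2 ratio was −2.23 (exact test, adjusted p = 8.37e-06). Rps27l had 997 and 547 counts and a ratio of −0.59 (exact test, adjusted p = 2.56e-14). Its relative Rps27 was called higher in library 2 on its own counts, at 0.11, but stood at −0.13 with its copies added. Rpl36al (−0.03), Rps12-ps3 (0.05) and Rpl10l (0.12) did not pass the test.

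Other genes of ribosome production were read from lists, beside 23.9% of all genes tested that passed with more counts in library 1 and 46.4% with more in library 2. Of the 16 genes with known TOP transcripts outside the ribosome, 10 passed with more counts in library 1 and none with more in library 2. The median log2 ratio was −0.13 in the gene tables and 0.07 in the count tables. Gas5, Snhg1, Snhg5, Snhg6 and Snhg8, which are noncoding, had no values in the count tables, so that median rests on the others. The list includes the elongation factors Eef1a1 (TPM 4329 and 3889) and Eef2 (606 and 579), and Tpt1 (1251 and 1161) was also higher in library 1. Of 29 ribosome biogenesis genes, 14 passed with more in library 1, 4 passed with more in library 2 and 11 did not pass, and the median was −0.11 in the gene tables and −0.07 in the count tables. Npm1, a nucleolar chaperone that is in both lists, stood at 584 and 451 and Ncl, nucleolin, at 411 and 308, both higher in library 1. Nop56, of the methylation guide complex, was higher in library 2 (239 and 256).

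Of 16 genes for ribosomal protein chaperones and subunit maturation, 9 passed with more counts in library 1 (23.9% of all genes tested) and 5 with more in library 2 (46.4% of all genes). The median log2 ratio was −0.13, and −0.07 in the count tables. Nmd3, which exports the large subunit and leaves it as Rpl10 joins, was higher in library 2 (101 and 118). Of 16 genes for control of TOP mRNAs and translation by mTOR, 6 passed in each direction, beside the same 23.9% and 46.4% of all genes, and the median was 0.03, and −0.02 in the count tables. Larp1, which binds the TOP tract, was higher in library 1 (101 and 79.5) and Myc in library 2 (142 and 195). Fau and Rack1 were both higher in library 1, with log2 ratios of −0.28 and −0.33.

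The erythroid, macrophage and proliferation markers given above moved between the same 2 libraries, Top2a against the other proliferation markers. Erythroid markers held 0.286% of the expected counts of library 1 and 0.0031% of library 2. With them left out of the library totals, the median log2 ratio of the core genes was −0.23. The part of cell composition in the difference was not tested.

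The count tables gave other values for these genes. They listed 19411 counts for the members in library 1, 0.245% of the total (Wilson interval 0.242 to 0.249), and 18290 in library 2, 0.262% (0.259 to 0.266), where the gene tables gave 2.80% and 2.45%. In CPM, counts scaled to the same library total, all 77 core genes were lower in the count tables, by a median of 13.1-fold and from 1.496-fold to 249-fold. Other detected genes were higher there by a median of 0.62 on the log2 scale (10716 genes). For 236 other genes with a mean TPM between the core quartiles of 363 and 1305, the count tables were lower by a median of 2.55-fold. The count and gene tables rest on different annotations, so their levels are set side by side and not tested.

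**Figure D3:**
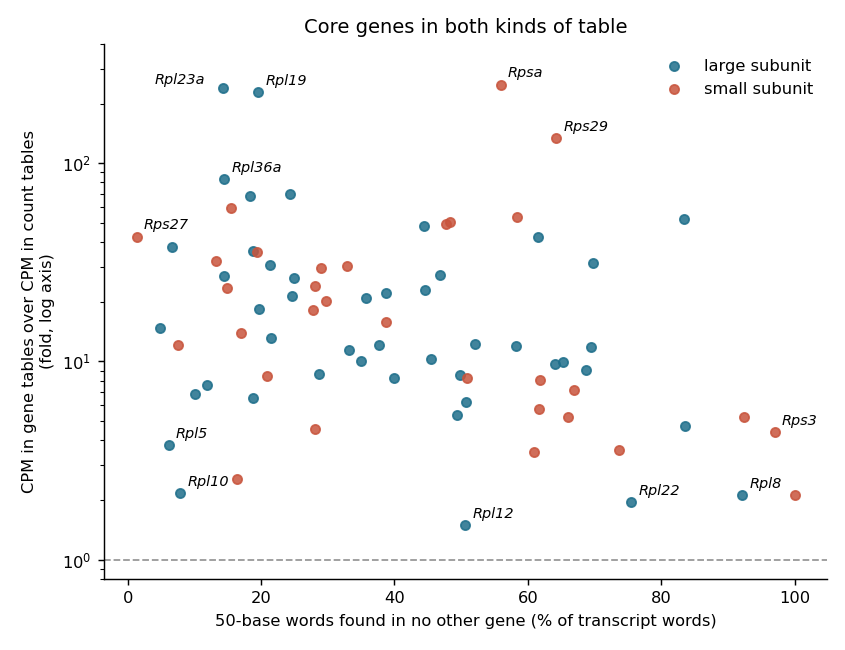
Fold by which the CPM (counts scaled to the same total) of each core gene in the gene tables exceed those in the count tables (log axis, sums of 2 libraries) against the percentage of its 50-base words that no other gene holds. All 77 genes lie above 1, from Rpl12 at 1.496 to Rpsa at 249, and genes with nearly all words unique, such as Rps3, also lie above it.

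The size of the gap differed among the core genes. It was largest for Rpsa, with 23252 and 17489.6 counts in the gene tables and 20 and 29 in the count tables. Rpl23a, Rpl19, Rps29 and Rpl36a followed at 239.7-fold, 229-fold, 134-fold and 83.2-fold. It was smallest for Rpl12 (1.496-fold), Rpl22 (1.95-fold), Rpl8 (2.12-fold) and Rpl10 (2.17-fold), which are 4 of the 5 lowest. Rpl12 and Rpl10 are genes whose gene-table counts lay mostly in copies, and Rpl12 had 100 and 112 counts in the count tables.

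Shared sequence went with this gap in part. Across core genes, the percentage of unique words and the log2 ratio of count-table to gene-table CPM correlated at r = 0.32 (Spearman's rho 0.32), as a description over 77 genes that share libraries and length. Rps3, with 97.0% unique words, still had 22383 counts in the gene table and 1331 in the count table of library 1, a CPM 4.42-fold lower over both libraries. In the count table of library 1 no core gene exceeded 1.62 counts per base of its length, whereas 72 of 77 exceeded 2 in the gene table. How the count tables treat reads with several matches or with the same position is not given in the sources used here.

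Most copies were not listed in the count tables. Of the 55536 GENCODE genes, 22195 were listed there, and of the 320 copies 30. Those 30 held 179 counts in library 1 and 161 in library 2. For a copy that is not listed, the count tables cannot show whether it had reads. Rps27rt had 1 count in each library and Rpl10-ps3 had none. The paralogs Rpl10l, Rpl3l and Rpl39l went the other way, with 83, 15 and 28 counts in the count table of library 1 against 25.7, 5 and 45.7 in its gene table, which has over 3 times the total.

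The count tables also kept neither the order nor the direction. On counts per base, the core genes ranked with a Spearman's rho of 0.52 in library 1 and 0.54 in library 2 between the 2 kinds of table. The median log2 ratio of library 2 over library 1 was 0.07 in the count tables, against −0.22 in the gene tables, and 49 of 77 core genes had the opposite sign. There 11 core genes were called higher in library 2 (32.2% of all genes tested) and 1, Rps12, higher in library 1 (22.1%). Among the 11 were Rpl11, Rpl17, Rpl3, Rpl4, Rpl8, Rpl9, Rps14, Rps16 and Rps3. Abundant genes as a whole shifted too: 664 other genes with a mean TPM of at least 200 had a median of 0.11 in the count tables, with 282 called higher in library 2 and 12 in library 1. Rps12 was called higher in library 1 and Rpl11 higher in library 2 in both kinds of table, with log2 ratios in the count tables of −0.98 (adjusted p = 0.0115, exact test) and 0.94 (adjusted p = 0.0065, exact test).

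**Figure D4:**
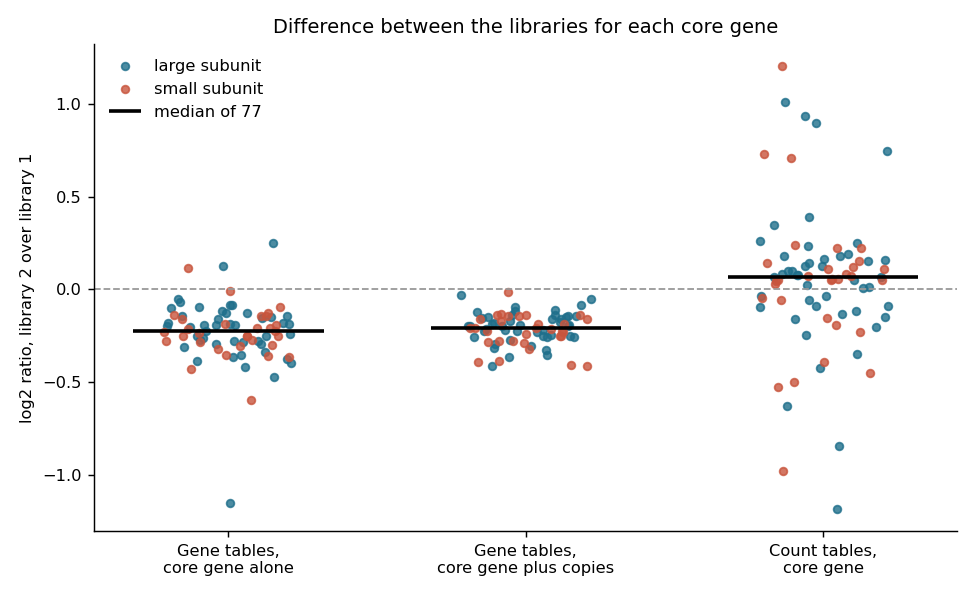
Log2 ratio of library 2 over library 1 for each of the 77 core genes in the gene tables alone, in the gene tables with copies added, and in the count tables; the bar is the median and colours mark the subunits. The medians are −0.22, −0.21 and 0.07, and the points are closest together in the sums.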

How the data were processed

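The 2 libraries, made from polyadenylated RNA of 1 biosample, form 1 group. Per the file headers, the authors' gene and transcript tables hold expected counts, TPM and FPKM, with the posterior SD of each count, and the transcript tables the percent of each gene in a transcript. The deposited count tables hold whole-number counts per gene. Per the labels the assembly is mm10. Neither aligner and quantifier nor strand use and duplicate handling were named, that is, they were not given in the sources used here. The gene tables list 55536 GENCODE M21 genes, and 53642 and 51825 counts in rows that name no gene were left out. Of 22457 genes in the count tables, 22195 were matched by identifier.

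Expected counts were rounded and compared between the libraries with a 2-sided exact binomial test (scipy 1.17.1) against the share of the library totals, for genes with at least 10 counts summed, with Benjamini-Hochberg adjustment over all genes tested and genes were called below an adjusted p of 0.05. The test was run on simulated data first. It and the Wilson intervals cover counting error only, because reads copied by PCR are not independent molecules. Log2 ratios add 0.5 counts. Copies were found from shared 50-base words of the GENCODE M21 transcripts, and coding sequences were aligned with Biopython 1.88. Expected counts of genes with near-identical copies are uncertain, and the posterior SD of the core genes had a median of 1.04% of the count in library 1 and reached 10.6%.

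The members and lists were chosen with earlier results of these data known. The text names, per subunit, the 5 highest and 5 lowest core genes by mean TPM, all members outside the core, the 5 core genes with the largest log2 ratio in each direction, genes by role, the 5 with the lowest and highest ratio between the tables, and the 5 with the lowest share of the leading transcript. A few genes that the rule names are left out of the text and not reported here. Alternatives were TMM factors (edgeR 4.0.16), DESeq2 1.42.0 size factors, other filters, thresholds and units, the count tables, and each library alone.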

Additional observations from a re-analysis of the deposited data

How the results depend on the processing

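No paired analysis was possible because the study has 1 group of 2 libraries. The number of members detected stayed between 81 and 90 under all 6 alternatives, and was 88 in each library alone. The mean share of expected counts was 2.62%. It was 0.254% in the count tables and 2.95% with pseudogenes named by symbol added, and from 2.45% to 2.80% in single libraries. The mean share of TPM was 7.44%, from 7.01% to 7.86% in single libraries, and 9.79% with copies added, an alternative chosen after the data were seen, as are all others that use copies. Calls higher in library 1 went from 78 (23.9% of all genes tested) to 2 in the count tables (22.1%) and to 5 under a 1.5-fold rule (14.5%). Calls higher in library 2 went from 3 (46.4% of all genes tested) to 11 in the count tables (32.2%). They went to 0 with DESeq2 size factors (39.0%), to 0 under the 1.5-fold rule (9506 of 24253 genes) and to 0 with copies added (46.6%). The median log2 ratio of −0.22 was −0.26 with TMM factors and −0.37 with DESeq2 size factors, which also put all detected genes at −0.14, and it turned to 0.066 in the count tables. The cause of that reversal was not tested. The SD of log2 TPM, 1.49 as the mean of both libraries and 1.44 to 1.53 in single ones, was 1.80 on counts per base in the count tables, 1.31 with pseudogenes named by symbol added, 1.41 as a scaled median absolute deviation and 0.91 with copies added. The log2 ratio of small-subunit over large-subunit medians, 0.37 (0.36 to 0.37 in single libraries), was 0.42 on counts per annotated length, 0.64 in the count tables, 0.22 with means and 0.15 with copies added, and stayed positive throughout. Counts behind a call were low for some genes of the count tables, such as Rps16 with 17 and 35.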
